A study of Mus musculus with 6 samples.

Results

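The cyclic nucleotide signalling enzymes are the genes that make, sense, anchor and destroy cyclic AMP and cyclic GMP in a cell. They were chosen by symbol, as the probe sets whose annotation names exactly 1 gene among the nitric oxide synthases and Nos1ap, the guanylyl cyclases, the natriuretic peptide receptors, the adenylyl cyclases, the subunits, relatives and inhibitors of protein kinase A (PKA), the cGMP-dependent kinases, the lettered phosphodiesterases and the numbered A-kinase anchoring proteins. The rule found 72 genes, read by 76 probe sets, among the 22180 genes tested. Of several probe sets for a gene the brightest over all arrays was used. Adcy3 and Pkig were not analysed here because their probe sets are annotated with a second gene. The study read RNA of mouse primary hippocampal cells, dissected from embryos at prenatal day 18, on 1 Affymetrix array per sample. All 6 cultures were infected with AAV1/2, an adeno-associated viral vector, 7 days after seeding and harvested 7 days after infection. The vector of 3 samples encoded a construct that knocks down Diras2, which codes for a neuronal GTPase related to Ras, and that of the 3 control samples a scrambled sequence. The labels name no second knockdown construct and no uninfected culture, and the promoter and sequence of the construct are not given in the sources used here, so effects of losing Diras2 and other effects of the construct cannot be told apart.

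Cyclic AMP is made by adenylyl cyclases, which stimulatory G proteins switch on and inhibitory ones switch off. Cyclic GMP is made by soluble guanylyl cyclase, an alpha and beta heterodimer that nitric oxide activates, and by membrane guanylyl cyclases that are receptors for peptides. Both messengers activate kinases, PKA for cAMP and the cGMP-dependent kinases for cGMP, and both are hydrolysed by phosphodiesterases, whose families differ in the messenger they prefer. A-kinase anchoring proteins hold PKA next to its substrates. In hippocampal neurons this machinery is best known for its part in long-term potentiation and for activating the transcription factor CREB.

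Levels are log2 RMA values, so a difference of 1 is a doubling, and the number of arrays limits their precision. Levels of different probe sets depend on their probes and are not compared between genes. Array medians lay between 4.03 and 4.11, and Pearson correlations across genes were 0.981 to 0.989 between the groups. The knockdown samples had RNA integrity numbers of 9, 9.3 and 9.2, and the controls of 9.2, 9 and 8.8. Diras2 read 7.17, 6.23 and 6.08 in the knockdown arrays and 10.17, 10.17 and 9.76 in the controls, and an exact two-sided permutation test of this gene gave p = 0.1, the smallest that 3 against 3 arrays allow. No label says whether the biological replicates were separate cultures or litters, and p-values therefore reflect only how these samples scatter, which may be technical. The 9 measured excitatory hippocampal markers had levels from 6.17 to 11.4, the 9 pan-neuronal markers from 8.34 to 12.9, the 10 inhibitory neuron markers from 6.72 to 11.9 and the 8 astrocyte markers from 7.16 to 10.5, so genes of neurons and of astrocytes were both read. Of the pan-neuronal markers 1 fell by limma, Snap25, by 0.51 (adjusted p 0.0471, and up to 0.168 on leaving out single arrays), and 3 fell with the replicate block. Of 7 oligodendrocyte lineage markers 1 rose, Pdgfra, the receptor that marks oligodendrocyte precursors, at 5.94, 8.08 and 7.22 in the knockdown and 4.33, 3.91 and 4.6 in the control, a difference of 2.80 (SE 0.47, adjusted p by limma 0.0104, 0.0514 on adding RNA integrity to the fit and 0.0575 without control replicate 2). The median of that list was 0.12, its summed level, in log2, was 9.48 to 10.64 in the knockdown and 9.59 to 9.92 in the control, and its part in the members' differences was not tested. Both markers were named after their values were seen. Of 8 astrocyte, 8 microglia, 7 endothelial and 6 fibroblast markers limma called 0, where 4 had an unadjusted p under 0.05, with list medians of -0.20, -0.03, 0.03 and 0.13. In a mixed culture, fewer cells of a type and less RNA per cell cannot be told apart.

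Knockdown minus control was tested with limma over all genes, with calls made below an adjusted p of 0.05. Of the 72 members 7 were called higher and 2 lower in the knockdown, and 63 were not called. The members that rose were the kinases Prkg1 and Prkx, the PKA inhibitor Pkia, the cAMP phosphodiesterase Pde7a, the neuronal nitric oxide synthase Nos1, the anchoring protein Akap11 and the PKA regulatory subunit Prkar1a. Those that fell were the phosphodiesterases Pde1a and Pde4a. The members called were 12.5% of the list, beside 7.80% of all genes, 4.17% that rose and 3.64% that fell. The median log2 difference of the members was -0.01, with 32 above 0, 39 below and 1 at 0, and the median over all genes was 0. At a mean level of at least 6 lay 44 members, which held all 9 calls, or 20.5%, against 15.9% of the 9016 genes tested at that level. An unadjusted p under 0.05 was found there for 23 members and 3218 genes, and over all levels for 26 members and 4637 genes. Of the other 28 members, under 6, limma called 0, where 3 had an unadjusted p under 0.05, and 2.25% of all genes under 6 were called; whether such dim members lay above background was not tested. The groups of 3 did not overlap for 28 members (38.9%), 15 higher and 13 lower in the knockdown, where 25.5% of all genes did not overlap. This share depended on level. At a mean level of at least 6 it was 56.8% of members and 41.3% of genes, and under 6 it was 10.7% and 14.7%. Deviations from group means correlated at 0.43, 0.12 and 0.37 for samples with the same replicate number, and at -0.38 to 0.06 otherwise. No label says that equal numbers are pairs. The replicate block was thus drawn from these same values, and its calls are not independent support. With that number as a block 10 members rose and 5 fell, where 6.05% and 5.64% of all genes did. The members added by the block were Prkar2b, Adcy9 and Pde6a, which rose, and Gucy1a1, Prkacb and Pde1b, which fell.

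**Figure D1:**
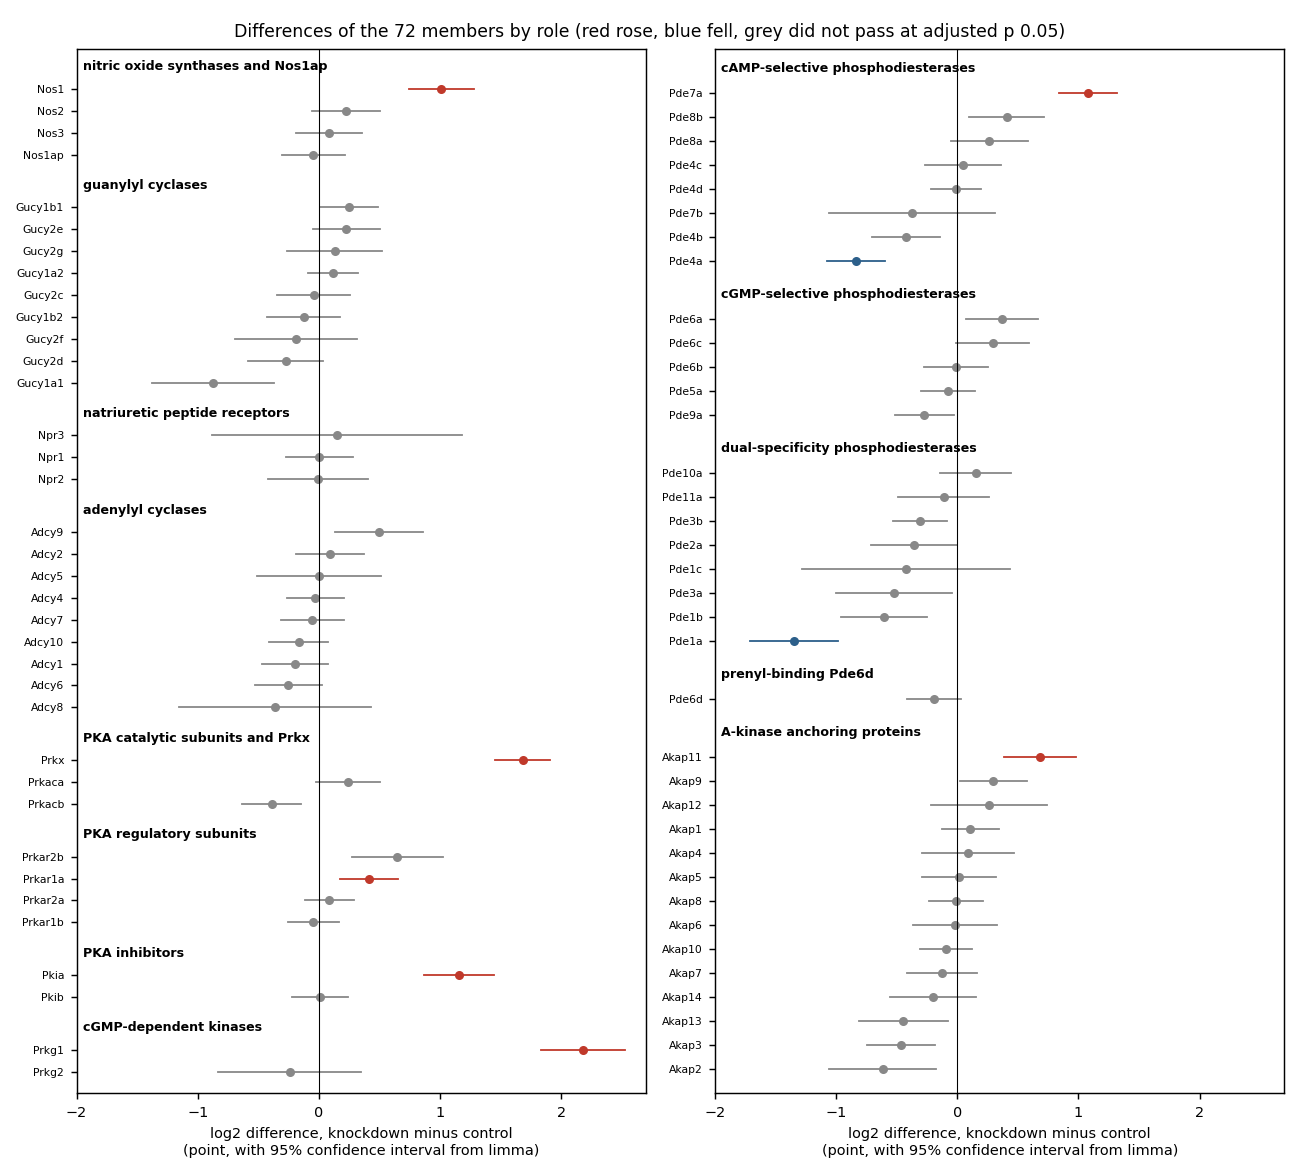
The log2 difference, knockdown minus control (horizontal axis), of each of the 72 members grouped by role, with its 95% confidence interval from limma; red members rose, blue members fell and grey members did not pass at an adjusted p under 0.05. Prkg1 lies farthest right at 2.18 and Pde1a farthest left at -1.35, and most other intervals cross or lie near 0.

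The branch that makes and senses cyclic GMP held the member with the largest difference. Prkg1, cGMP-dependent protein kinase I, the main cGMP effector of smooth muscle and of several neuron types, read 8.38, 8.0 and 8.22 in the knockdown and 6.25, 6.04 and 5.77 in the control. The lowest knockdown array lay 1.75 above the highest control array. The log2 difference was 2.18 (SE 0.15, 95% interval 1.83 to 2.53), with an adjusted p by limma of 0.000555, and under the alternatives tried it ran from 2.06 to 2.30. Prkg2, the membrane-bound type II kinase, lay near the dim end of the scale, at 3.86 ± 0.33 (SD, n = 3) and 4.10 ± 0.49 for knockdown and control, and did not pass (adjusted p by limma 0.685).

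RefSeq gives Prkg1 a pair of start sites with a promoter window each, shown here because no other member changed as much. The windows cover the 250 bases before each start in build GRCm38.p6, on the minus strand of chromosome 19, printed 5′ to 3′, at chr19:31765034-31765283 and chr19:31664371-31664620. Capitals mark the GC box GGGCGG, the core letters bound by Sp1-type factors, searched on both strands.
Prkg1 outer start: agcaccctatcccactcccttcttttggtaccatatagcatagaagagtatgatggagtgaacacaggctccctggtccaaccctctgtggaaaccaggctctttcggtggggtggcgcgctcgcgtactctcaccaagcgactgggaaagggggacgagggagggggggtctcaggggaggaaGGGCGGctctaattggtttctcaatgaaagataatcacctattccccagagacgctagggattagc
Prkg1 inner start: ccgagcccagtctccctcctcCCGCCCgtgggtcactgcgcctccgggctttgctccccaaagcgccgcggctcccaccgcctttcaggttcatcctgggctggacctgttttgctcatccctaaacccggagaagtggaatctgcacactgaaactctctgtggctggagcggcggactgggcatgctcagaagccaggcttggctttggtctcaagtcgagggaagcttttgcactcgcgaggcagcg
Each window held 1 GC box, which began 66 and 229 bases before the start. Of the 32851 RefSeq windows of this length 32.7% held a GC box, and 41.2% of the 102 windows of the 56 members with a promoter window did. The probe set of Prkg1 does not tell the starts apart.

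Nos1, the neuronal nitric oxide synthase, read 7.62, 7.96 and 7.75 in the knockdown against 6.71, 6.85 and 6.74 in the control. All 3 knockdown arrays lay above all controls, and the gene rose by 1.01 (SE 0.12, adjusted p by limma 0.00237), or 2.01-fold. The other synthases, Nos3 of endothelium and Nos2 of inflammation, had log2 differences of 0.08 and 0.23 at dim levels. Nos1ap, the adaptor that binds Nos1, had -0.05 (95% interval -0.31 to 0.21).

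Soluble guanylyl cyclase, the nitric oxide receptor, was measured by its alpha and beta subunits, and of the 9 guanylyl cyclases 0 passed by limma, where 2 had an unadjusted p under 0.05. Gucy1a1, the alpha-1 subunit, came nearest: 7.08, 7.72 and 7.54 in the knockdown and 7.90, 8.46 and 8.60 in the control. The groups did not overlap, and the log2 difference was -0.87 (SE 0.22) with an adjusted p by limma of 0.0502, and of 0.00476 with the replicate block. On leaving out single arrays the adjusted p by limma ran from 0.0172 to 0.178, and with RNA integrity as a covariate it was 0.177. Within the numbered pairs the differences were -0.82, -0.74 and -1.06. The other alpha subunit, Gucy1a2, read 8.07 ± 0.05 (SD, n = 3) and 7.96 ± 0.02, and the common beta subunit Gucy1b1 10.27 ± 0.07 and 10.03 ± 0.12. Both had groups that did not overlap, the knockdown higher by 0.11 and 0.25, and neither passed (adjusted p by limma 0.558 and 0.220). The remaining 6, Gucy1b2 and the membrane cyclases Gucy2c, Gucy2d, Gucy2e, Gucy2f and Gucy2g, lay at dim levels with overlapping groups. The 3 natriuretic peptide receptors did not pass by limma, and 0 had an unadjusted p under 0.05. Npr2, the receptor for C-type natriuretic peptide, and Npr1, the receptor for the atrial peptide, had differences of -0.01 and 0.00. Npr3, the clearance receptor, read 8.70, 8.62 and 8.07 in the knockdown and 9.09, 8.70 and 7.15 in the control, so its control arrays alone spread over 1.94 log2 units, and the interval of its difference ran from -0.88 to 1.18.

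Since Prkg1 and Gucy1a1 are also genes of smooth muscle and pericytes, markers of those cells were read beside them. Of 10 mural and smooth muscle markers 0 rose, 1 fell and 9 did not pass by limma, 1 had an unadjusted p under 0.05, and they had a median log2 difference of -0.10. The one that fell, named after its values were seen, was Rgs5, a pericyte gene, at 6.80, 6.69 and 6.34 in the knockdown and 8.03, 7.76 and 8.24 in the control. Their summed level, in log2, was 8.73 to 9.27 in the knockdown and 9.39 to 10.01 in the control. Acta2, which with Rgs5 had the highest levels of the list, read 8.04, 6.64 and 8.0 against 7.42, 8.05 and 8.83, groups that overlapped. The part of these cells in the differences of Prkg1 and Gucy1a1 was not tested. The defining smooth muscle gene Myh11 read 5.26 in both groups.

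Of the 9 adenylyl cyclases 0 passed by limma, where 1 had an unadjusted p under 0.05. Adcy9, a widely expressed cyclase insensitive to forskolin, was the only one whose groups did not overlap, at 7.40, 7.06 and 6.85 against 6.80, 6.49 and 6.53. Its log2 difference was 0.50 (SE 0.16, adjusted p by limma 0.110, 0.0275 with the replicate block, and 0.0847 to 0.297 on leaving out single arrays). Adcy1 and Adcy8, the calcium-stimulated cyclases tied to hippocampal plasticity, had -0.20 (95% interval -0.47 to 0.07) and -0.36. Adcy8 was spread within both groups, from 5.66 to 6.64 in the knockdown and from 5.87 to 7.19 in the control, with each numbered pair lower in the knockdown. Adcy2, with the brightest probe set of the family, read 9.34 ± 0.15 (SD, n = 3) and 9.24 ± 0.15. Adcy5 had equal means in both groups, Adcy6 differed by -0.25, and Adcy4, Adcy7 and the soluble bicarbonate-sensing cyclase Adcy10 lay at dim levels with differences from -0.17 to -0.03.

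Among PKA and its close relatives, Prkx changed most. Prkx, an X-linked kinase of the PKA catalytic family, read 7.66, 7.81 and 7.83 in the knockdown and 6.13, 6.01 and 6.11 in the control. The knockdown arrays lay within 0.17 of each other, and the gap between the groups was 1.53. Prkx rose by 1.68 (SE 0.10), or 3.21-fold, with an adjusted p by limma of 0.000248. The classical catalytic subunits went in opposite directions without passing. Prkaca read 10.84, 10.92 and 10.68 against 10.69, 10.60 and 10.43, groups that overlapped, a difference of 0.24 (adjusted p by limma 0.284). Prkacb read 10.14, 10.34 and 10.27 against 10.52, 10.66 and 10.74, groups that did not overlap, a difference of -0.39. Its adjusted p by limma was 0.0679, 0.0444 with the replicate block, and 0.0659 to 0.202 on leaving out single arrays. A second, dimmer probe set of Prkaca had a difference of 0.03.

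Regulatory subunits hold the catalytic subunits inactive until cAMP binds. Prkar1a, the widely expressed type I alpha subunit, read 9.32, 9.25 and 9.24 in the knockdown and 8.84, 8.74 and 8.99 in the control. It rose by 0.41 (SE 0.10), and its adjusted p by limma of 0.0487 was the one nearest the threshold among the members called. The call was lost on leaving out any array but control replicate 3 (0.101 to 0.180) and on adding RNA integrity as a covariate (0.0997). Prkar2b, the type II beta subunit typical of neurons, lay just outside, at 9.32, 9.88 and 9.82 against 8.88, 9.03 and 9.17. Its groups did not overlap, and its difference of 0.65 (SE 0.16) had an adjusted p by limma of 0.0514, and of 0.0151 with the replicate block. Without knockdown replicate 1, its lowest knockdown array, the adjusted p by limma was 0.0136. Without each of the other arrays it was 0.0666 to 0.175, and with RNA integrity as a covariate 0.182. Prkar1b, the neuronal type I beta subunit, and Prkar2a had differences of -0.05 (95% interval -0.26 to 0.16) and 0.09 (-0.12 to 0.29).

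PKI proteins bind the free catalytic subunit and carry it out of the nucleus. Pkia, the alpha form, read 10.09, 9.94 and 9.92 in the knockdown and 9.02, 8.85 and 8.61 in the control. The gap between the groups was 0.90. Pkia rose by 1.16 (SE 0.13), or 2.23-fold, with an adjusted p by limma of 0.00198. Pkib, the beta form, read 5.35 ± 0.08 (SD, n = 3) and 5.34 ± 0.09.

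**Figure D2:**
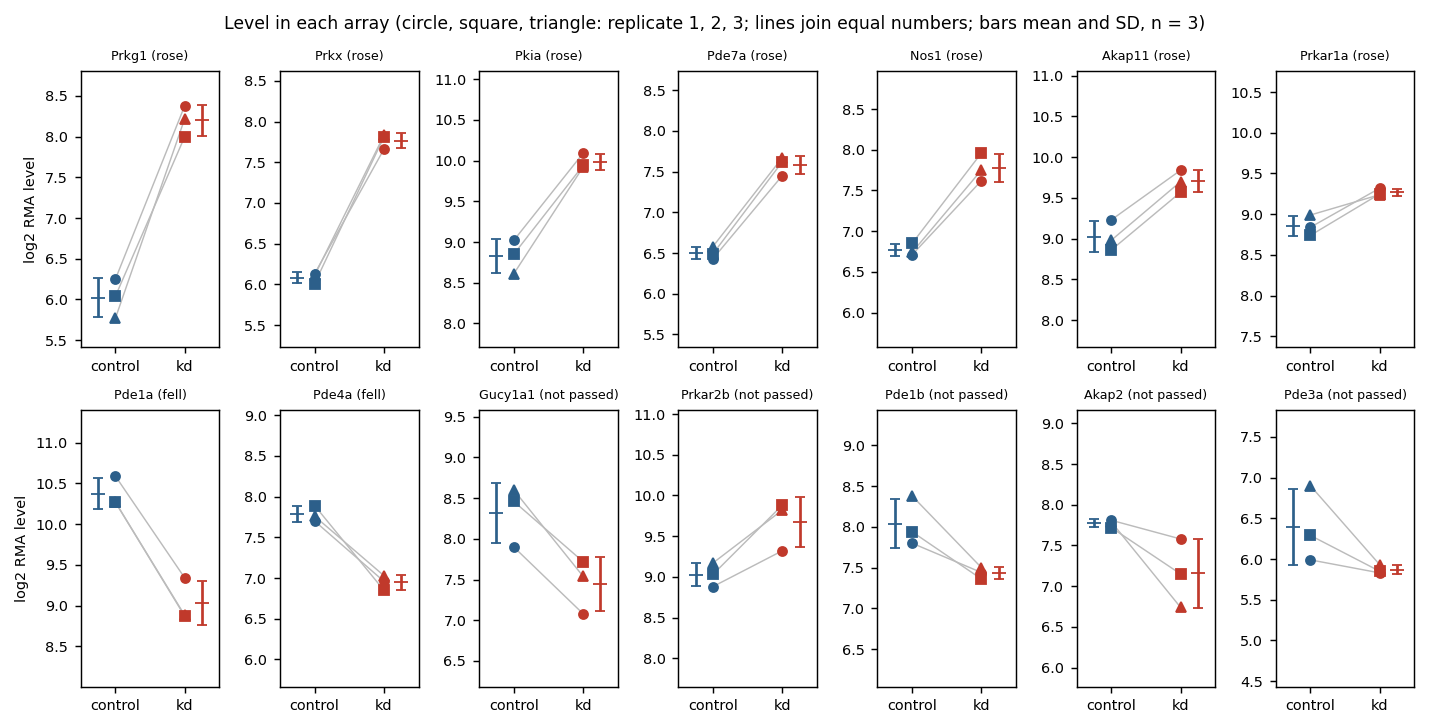
The log2 RMA level (vertical axis, each panel spanning the same width) of 14 members in each control array (blue) and knockdown array (red), with symbols for replicates 1 to 3, lines between equal replicate numbers, and bars for mean and SD (n = 3). The first 9 panels are the members called; in the other 5, Gucy1a1, Prkar2b, Pde1b, Akap2 and Pde3a, the groups do not overlap but the test was not passed.

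Among 21 measured phosphodiesterase enzymes 1 rose and 2 fell by limma, or 14.3% called. The share called was 7.80% over all genes and 15.9% over genes at a mean level of at least 6. Of the cAMP-selective families, Pde7a, a high-affinity enzyme resistant to rolipram, read 7.45, 7.62 and 7.67 in the knockdown and 6.43, 6.49 and 6.58 in the control. The groups were clearly apart, and Pde7a rose by 1.08 (SE 0.10), or 2.11-fold, with an adjusted p by limma of 0.00127. A second probe set of Pde7a, at the dim level of 4.67, had a difference of 0.06, and the mean of both probe sets rose by 0.57. Pde4a, a rolipram-sensitive enzyme, went the other way, at 6.96, 6.85 and 7.03 in the knockdown and 7.70, 7.89 and 7.76 in the control. It fell by 0.84 (SE 0.10, adjusted p by limma 0.00311), or 1.79-fold, in groups that were again clearly apart.

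Pde4b, of the same rolipram-sensitive family, read 6.69, 6.99 and 6.98 in the knockdown and 7.44, 7.18 and 7.31 in the control, a difference of -0.42 with an adjusted p by limma of 0.0836. Pde4d had -0.01 (95% interval -0.22 to 0.19) and Pde4c 0.04. Pde8b, an enzyme insensitive to the inhibitor IBMX, had groups that did not overlap and a difference of 0.41 (adjusted p by limma 0.126). The adjusted p by limma was 0.0336 without control replicate 1, and 0.200 to 0.316 without each of the other arrays. With RNA integrity as a covariate it was 0.381. Its relative Pde8a had 0.26 at a dim level. Pde7b, the relative of Pde7a, had -0.38, and control replicate 3 alone, at 6.47, lay far above the other 5 arrays, 5.18 to 5.47.

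Of the 8 enzymes that hydrolyse both messengers, 7 were lower in the knockdown, with a median log2 difference of -0.39. Pde1a, stimulated by calcium and calmodulin, read 9.34, 8.87 and 8.88 in the knockdown and 10.59, 10.27 and 10.27 in the control. It fell by 1.35 (SE 0.16), or 2.54-fold, with an adjusted p by limma of 0.00272 and within-pair differences of -1.25, -1.40 and -1.39. Pde1b, its calmodulin-stimulated relative, read 7.44, 7.36 and 7.50 against 7.80, 7.94 and 8.38. These groups did not overlap either, and the difference of -0.61 (SE 0.15) had an adjusted p by limma of 0.0516, and of 0.0257 with the replicate block. Without control replicate 1 the adjusted p by limma was 0.0321. Without each of the other arrays it was 0.0727 to 0.170, and with RNA integrity as a covariate 0.177. Pde1c, the third of the family, was dim and spread in the control (3.70, 4.21 and 5.37), with a difference of -0.42.

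Pde2a, which cGMP activates, read 10.91, 10.87 and 10.56 against 11.26, 11.30 and 10.85, lower in each numbered pair by 0.29 to 0.43 but overlapping, with an adjusted p by limma of 0.238. Pde3a and Pde3b, the cGMP-inhibited enzymes, had groups that did not overlap and differences of -0.52 and -0.31 (adjusted p by limma 0.197 and 0.109). In Pde3a the knockdown arrays lay between 5.83 and 5.93, and the controls at 5.99, 6.29 and 6.90. Without control replicate 3, the highest, the difference of Pde3a was -0.27, and with RNA integrity as a covariate it was -0.29. Pde10a, an enzyme known from striatal neurons, was the member above 0, by 0.15, and Pde11a had -0.11.

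Of the 5 cGMP-selective enzymes 0 passed by limma, where 2 had an unadjusted p under 0.05. Pde9a, the high-affinity enzyme of brain, read 6.55, 6.79 and 6.75 against 7.04, 6.98 and 6.89, groups that did not overlap, with a difference of -0.27 (adjusted p by limma 0.187). Pde5a, the target of sildenafil, had -0.08 at a dim level. The photoreceptor subunits Pde6a, Pde6b and Pde6c lay between 2.64 and 3.54 in every array. Among them Pde6a was higher in each knockdown array by 0.37 on average, without passing. Its adjusted p by limma was 0.147, 0.0491 with the replicate block, and 0.157 to 0.370 on leaving out single arrays. Pde6d, a chaperone of prenylated proteins that only shares the name, had -0.19.

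Of the 14 A-kinase anchoring proteins 1 rose, 0 fell and 13 did not pass by limma, or 7.14% called beside 7.80% of all genes. An unadjusted p under 0.05 was found for 5, 3 of them lower in the knockdown, and for 4637 of all 22180 genes. Akap11, known as AKAP220, which binds PKA, protein phosphatase 1 and GSK3, read 9.84, 9.57 and 9.70 in the knockdown and 9.23, 8.86 and 8.98 in the control. The groups did not overlap, and Akap11 rose by 0.68 (SE 0.13), or 1.60-fold, with an adjusted p by limma of 0.0174. Leaving out knockdown replicate 1 (0.0540), or 3 (0.0658), or control replicate 2 (0.0788) ended the call, as did adding RNA integrity as a covariate (0.0794). Akap5, the postsynaptic anchor of PKA and calcineurin, had a difference of 0.01 (95% interval -0.30 to 0.32), and Akap6, an anchor at the nuclear envelope with the brightest probe set of the family, one of -0.02.

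Akap9, the centrosomal and Golgi anchor, was higher in all knockdown arrays by 0.30 without passing (adjusted p by limma 0.203). Akap2 read 7.58, 7.15 and 6.74 in the knockdown and 7.81, 7.72 and 7.79 in the control, a difference of -0.62 carried by a wide spread of the knockdown arrays. Its adjusted p by limma was 0.103, and 0.0214 without knockdown replicate 1. Without knockdown replicate 3 the difference was -0.41 (adjusted p by limma 0.216), and without each of the other arrays the adjusted p was 0.179 to 0.243. Another probe set annotated with both Palm2 and Akap2 was not used. Akap13 had -0.45 and the sperm protein Akap3, at a dim level, -0.47, both in groups that did not overlap (adjusted p by limma 0.151 and 0.0572). Akap3 had an adjusted p by limma of 0.0319 without knockdown replicate 3, and of 0.104 to 0.191 without each of the other arrays. Akap1 of mitochondria, the nuclear Akap8, and Akap7, Akap10 and Akap12 had differences from -0.13 to 0.26, and the sperm proteins Akap4 and Akap14 were dim.

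**Figure D3:**
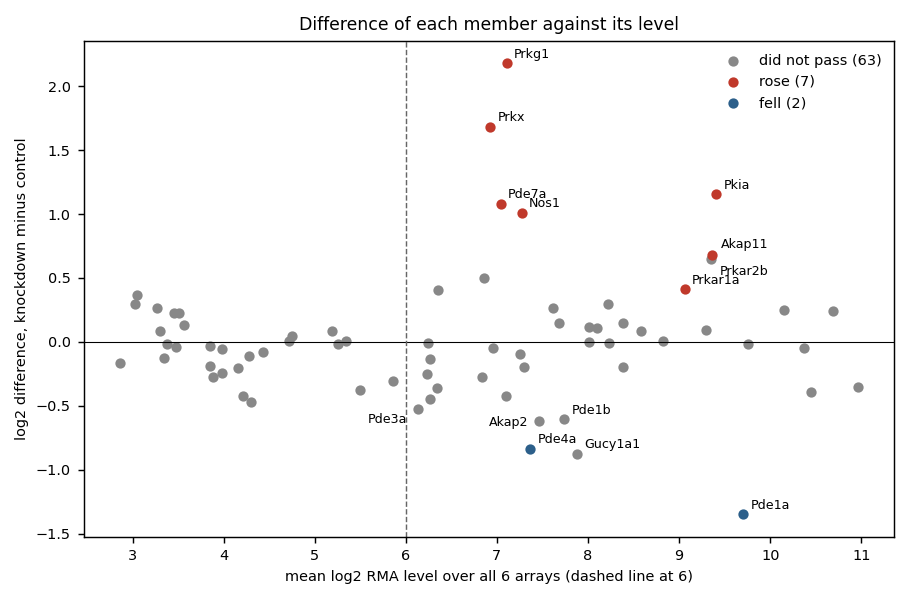
The log2 difference, knockdown minus control (vertical axis), of each of the 72 members against its mean log2 RMA level over all 6 arrays (horizontal axis), with a dashed line at level 6; red members rose, blue members fell and grey members did not pass. All 9 members called lie to the right of the line, 7 above and 2 below 0.

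CREB, the best known nuclear target of PKA, binds the cAMP response element (CRE), so promoter windows of the members called were searched for its full form TGACGTCA and its shorter core TGACG on both strands. A full site contains the core on each strand and is counted under both. Among the 56 members with a promoter window 1, Prkar1a, had a full CRE, or 0.98% of the 102 windows against 1.55% of all 32851. Cores were in 17.6% of the member windows and 17.8% of all windows. Of the 9 members called 6 had a promoter window, and 5 of these had a core in at least 1 window, both among genes that rose and among genes that fell. Counted by gene, 28.6% of the 56 members and 19.8% of all genes with a promoter window had a core, and a gene with several windows has more chances to hold one. Prkx, Pkia and Pde7a, though matched to a RefSeq gene, had no promoter window in the set used. The stretches below, 1 per gene, are 30 bases each, build GRCm38.p6, 5′ to 3′ on the strand of the gene, with the match in capitals.
Prkar1a, plus strand, chr11:109650889-109650918: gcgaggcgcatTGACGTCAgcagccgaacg
Nos1, plus strand, chr5:117866696-117866725: taaaccagccatgCGTCAggcttggcttca
Akap11, minus strand, chr14:78537065-78537094: gaagcgcgcaagaCGTCAgccgagagttcg
Pde4a, plus strand, chr9:21184038-21184067: tggcacagctcgaCGTCAggctggggagga
Pde1a, minus strand, chr2:80039052-80039081: tgtaacttcagccCGTCAttcctcagtaat
The match shown began 49 bases before the start in Prkar1a, 130 in Nos1, 221 in Akap11, 50 in Pde4a and 166 in Pde1a. Further cores, not printed, began 136 and 129 bases before the start in Akap11, and 151 and 100 bases before other starts of Prkar1a. Neither window of Prkg1 held a core. A match of letters is a description and does not show that CREB binds there.

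The genes around these enzymes were read from lists of 110 genes, of which 99 were measured. Of these 6 rose, 3 fell and 90 did not pass by limma, or 9.09% called beside 7.80% of all genes. With the replicate block 9 rose and 9 fell, where 6.05% and 5.64% of all genes did. Upstream of the cyclases, Gnal, the olfactory-type stimulatory G protein that is close to Gnas, read 8.49, 8.20 and 7.98 in the knockdown and 6.55, 6.50 and 5.56 in the control, and rose by 2.02 (SE 0.26, adjusted p by limma 0.00373). Gnai3, an inhibitory G protein of adenylyl cyclase, also rose, by 0.80 (SE 0.09, adjusted p by limma 0.00213), from arrays at 8.39 to 8.44 to arrays at 9.17 to 9.25. The other 5 G protein alpha subunits had differences from -0.25 to 0.31 and did not pass. Among them Gnas was read at a dim level, 5.08. Of all 7, the 2 called included, 5 had an unadjusted p under 0.05. Groups did not overlap for 6 of the 7 (85.7%), beside 25.5% of all genes and 41.3% of those at a mean level of at least 6. Of 19 measured receptors that act on adenylyl cyclase 1 rose, Calcrl, the receptor for calcitonin gene-related peptide and adrenomedullin, 2.60-fold.

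Of 15 other cyclic nucleotide sensors and transporters 2 rose, Rapgef3, the cAMP-activated exchange factor Epac1, by 0.66 (SE 0.13) and Bves, a cAMP-binding Popeye protein, by 0.55 (SE 0.13, named after its values were seen), with adjusted p-values by limma of 0.0200 and 0.0434. Of the 6 fits that left out an array, Rapgef3 kept its call in 2 and Bves in 1, with adjusted p-values by limma up to 0.0854 and 0.152. Among 18 kinase substrates and related proteins Arpp19, a PKA substrate and a regulator of protein phosphatase 2A, fell by 0.82 (SE 0.09, adjusted p by limma 0.00219). Akap17b, a splicing factor relative named as an anchoring protein, rose by 0.60 (SE 0.12, adjusted p by limma 0.0220). The call of Akap17b was kept in 2 of the 6 fits that left out an array, with adjusted p-values up to 0.0802, and lost with RNA integrity as a covariate (0.0573). Of the 8 peptide ligands and the 12 partners of the nitric oxide pathway limma called 0, where 3 and 1 had an unadjusted p under 0.05, and 10 of those 12 partners lay below 0.

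The 20 targets of CREB had a median log2 difference of -0.51, and 17 lay below 0. By limma 2 fell, 0 rose and 18 did not pass. The share called was 10%, beside 7.80% of all genes and 15.9% of genes at a mean level of at least 6. An unadjusted p under 0.05 was found for 6, all with lower means in the knockdown. Over all genes 4637 of 22180 had an unadjusted p under 0.05, 2222 of them lower in the knockdown. With the replicate block 7 of the 20 targets fell, where 5.64% of all genes did. Inhba, the activin beta A subunit, read 5.24, 5.55 and 5.39 in the knockdown and 5.92, 7.35 and 6.96 in the control, and fell by 1.35 (SE 0.32, adjusted p by limma 0.0405). Ppargc1a, a coactivator of mitochondrial genes, read 9.05, 9.32 and 9.42 against 9.77, 10.13 and 10.25, and fell by 0.79 (SE 0.15, adjusted p by limma 0.0204). Both had groups that did not overlap. Inhba had adjusted p-values up to 0.121 and Ppargc1a up to 0.0927 on leaving out single arrays. Several of these targets are also activity-dependent genes or interneuron peptides. The 10 measured inhibitory neuron markers, Sst in both lists, had a median difference of -0.33, and 9 lay below 0. By limma 1 of them fell, and 4 fell with the replicate block. The 1 that fell by limma, named after its values were seen, was Lhx6. It read 7.57, 7.84 and 7.3 in the knockdown and 8.46, 8.97 and 8.88 in the control. Its adjusted p by limma was 0.0063, and the call was kept in the 6 fits that left out an array. The summed level of the 10 markers, in log2, was 12.30 to 12.98 in the knockdown and 12.77 to 13.71 in the control. The part of that level in the CREB list was not tested.

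**Figure D4:**
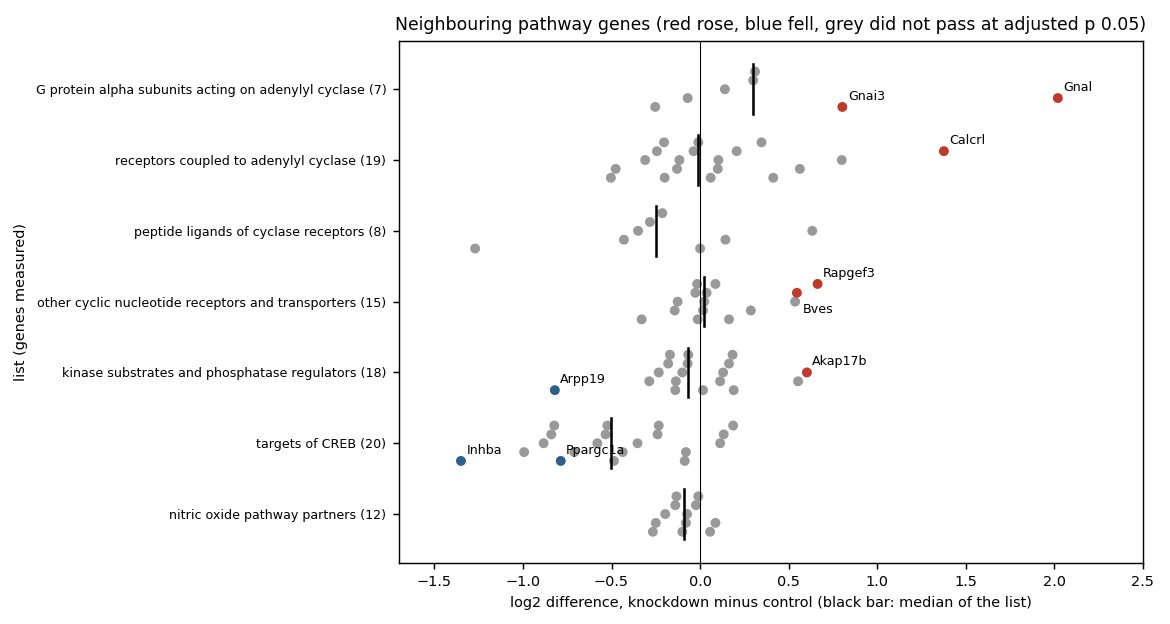
The log2 difference, knockdown minus control (horizontal axis), of 99 genes around the cyclic nucleotide enzymes in 7 lists (rows); red genes rose, blue genes fell, grey genes did not pass, and a black bar gives the median of a list. The CREB targets have the lowest median, -0.51, and Gnal lies farthest right at 2.02.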

How the data were processed

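The authors deposited log2 levels per probe set of 6 arrays. Per the submitters' processing notes, RMA was run in version 1.2.1.20 of the Affymetrix Expression Console. RMA corrects background and equalises the distributions of the arrays, which hides any global shift and shrinks changes of dim genes. The annotation behind the probe sets is GEO's platform table. It pairs 23521 of 41345 probe sets with 1 symbol, 1814 with several, and 16010 are unnamed here. Of the 72 members 71 matched a RefSeq gene (GRCm38.p6) by Entrez number, with 0 differing symbols, and promoter windows are RefSeq's.

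Knockdown minus control was tested with limma 3.58.1 in R 4.3.3 (lmFit, then eBayes with no trend), and p-values were adjusted by Benjamini-Hochberg over 22180 genes. The procedure was tested on simulated data with noise independent between arrays, which does not cover the correlated deviations given below. Folds are differences taken out of log2. Named with values were members called, members not called with groups apart and a difference of at least 0.5, the brightest of each role, and further members of each role; of other genes, those called. Members and lists were chosen with earlier results of these data known. Deviations from group means correlated at 0.43, 0.12 and 0.37 for same-numbered samples, all above 0.1, and at -0.38 to 0.06 otherwise. On the evidence of these values alone, the numbers were treated as pairs in the replicate block and in differences within numbered pairs. The main fit, which gave the calls, had no block. Alternatives were the replicate block, each array left out, other scalings, a filter on dim genes, an intensity trend, RNA integrity, other uses of probe sets and other thresholds. Figures were drawn with matplotlib 3.10.9.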

Additional observations from a re-analysis of the deposited data

How the results depend on the processing

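The number of arrays and, for members at a mean level under 6, signal over background limit these results. Prkg1, Prkx, Pkia, Pde7a, Nos1, Pde1a and Pde4a kept direction and call under all 15 alternatives that gave a value for them. Akap11 lost its call under 5 and Prkar1a under 8, among them quantile normalisation for Prkar1a (adjusted p by limma 0.0642). Of the members not called whose groups lay apart, Gucy1a1 and Pde1b passed under 7 of 15 alternatives, Prkar2b under 6, Akap2 under 1 and Pde3a under 0 of the 14 that kept it. These alternatives include a threshold of 0.1 on the unchanged main fit. That threshold cannot end a call, and it passes Gucy1a1, Pde1b and Prkar2b by their main adjusted p alone. A threshold of 0.01 left 5 members that rose and 2 that fell.

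With the replicate block 10 members rose and 5 fell, and over all genes 1341 rose and 1252 fell. Quantile normalisation gave 6 members that rose and 4 that fell, where 899 and 854 of all genes did. Median centring gave 8 and 4 members (945 and 697 of all genes), and an intensity trend 8 and 5 (1011 and 858). A filter for a level of at least 6 in at least 3 arrays kept 9154 genes and 43 members. Of these, 8 members rose and 6 fell, where 1175 and 966 genes did. At a threshold of 0.1, 8 members rose and 7 fell, where 1354 and 1238 genes did. Over single arrays left out, 5 to 7 members rose and 2 to 4 fell, the 4 without control replicate 1. Over all genes 383 to 800 rose and 306 to 687 fell. With RNA integrity as a covariate 402 genes rose and 356 fell, at a threshold of 0.01 these were 354 and 290, and 1238 fell at 0.1. The members' median difference ran from -0.047 to -0.0050 over arrays left out and was 0.01 with median centring. Median centring moved the median of all genes by 0.02.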
